A study of Mus musculus with 12 samples.

Results

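The genes of erythroid differentiation and heme synthesis were followed in mouse spleen. A list of 37 genes was used that names erythroid transcription factors, the erythropoietin and transferrin receptors, heme enzymes, mitochondrial carriers, the red cell membrane skeleton, surface antigens, carbonic anhydrases and factors of late maturation. Of these, 36 were found among the 18221 genes of the files, and Ahsp was not analysed here. All 36 passed the filter on low values and were among the 12671 genes tested.

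The spleens were those of 12 male ICR mice, an outbred stock, with 3 mice to a group. The Con-sa mice, labelled Blank, received saline only. The B-sa mice received a single injection of busulfan (40 mg/kg), an alkylating drug that depletes blood-forming cells, and then saline. The B+Con-FMT mice received busulfan and then fecal microbiota transplantation (FMT), daily by mouth for 2 weeks, from control donors. The B+A10-FMT mice received busulfan and FMT from donors dosed with alginate oligosaccharides at 10 mg/kg. The donor material was the content of the small intestine, pooled over the donors of a group, so that the FMT mice of a group shared 1 inoculum. Treatment began at 3 weeks of age and spleens were taken at 8 weeks, 3 weeks after the last FMT. Busulfan is therefore common to all groups but Con-sa.

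Red cells arise from progenitors that first need erythropoietin and the factor GATA1, then load iron through the transferrin receptor, build heme in a chain of enzymes shared between mitochondrion and cytosol, and finally assemble the spectrin-based membrane and discard their organelles and nucleus. The mouse spleen makes red cells throughout life, and its red pulp widens when the demand for red cells rises. In whole spleen, fewer cells of a type and less RNA per cell cannot be told apart.

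GATA1 binds sites that contain AGATAA or TGATAA, and KLF1 binds sites around CACCC. The stretch of 130 bases before the annotated start is shown for genes on which the results turn: Gata1, Klf1 and Epor at the head of the program, Uros, Rhag and Rhd among the genes that rose after busulfan, and Alas2, the gate enzyme of heme synthesis. Sequences are from RefSeq on build GRCm38.p6 and are written 5′ to 3′ on the strand of the gene. Capitals mark AGATAA or TGATAA, their reverse complements TTATCT and TTATCA, and CACCC with its reverse complement GGGTG.
Gata1 (chrX:7967911-7968040, minus strand): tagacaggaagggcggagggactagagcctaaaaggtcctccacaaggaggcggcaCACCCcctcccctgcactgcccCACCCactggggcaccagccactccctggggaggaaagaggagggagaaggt
Klf1 (chr8:84901852-84901981, plus strand): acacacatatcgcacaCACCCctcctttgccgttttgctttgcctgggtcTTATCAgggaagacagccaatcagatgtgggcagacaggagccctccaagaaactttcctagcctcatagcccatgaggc
Epor (chr9:21963577-21963706, minus strand): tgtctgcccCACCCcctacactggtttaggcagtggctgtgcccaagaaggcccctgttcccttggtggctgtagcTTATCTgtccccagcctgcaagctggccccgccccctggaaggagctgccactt
Uros (chr7:133702501-133702630, minus strand): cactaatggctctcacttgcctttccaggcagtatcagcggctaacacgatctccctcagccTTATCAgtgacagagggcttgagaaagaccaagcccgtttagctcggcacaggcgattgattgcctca
Rhag (chr17:40811019-40811148, plus strand): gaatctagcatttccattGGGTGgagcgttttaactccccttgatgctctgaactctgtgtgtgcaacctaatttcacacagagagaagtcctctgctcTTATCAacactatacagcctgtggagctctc
Rhd (chr4:134864406-134864535, plus strand): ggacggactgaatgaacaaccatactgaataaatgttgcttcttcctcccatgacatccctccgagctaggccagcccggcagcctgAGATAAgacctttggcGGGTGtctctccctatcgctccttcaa
Alas2 (chrX:150547287-150547416, plus strand): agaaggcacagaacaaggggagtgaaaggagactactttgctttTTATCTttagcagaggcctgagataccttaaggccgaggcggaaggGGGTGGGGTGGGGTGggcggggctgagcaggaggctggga

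The stretch of Gata1 lies inside the annotated gene, before an internal start, and holds 2 CACCC matches and no GATA match. The stretch of Uros also lies inside its gene. It is 1 of 2 windows given for Uros, and the other, nearer the 5′ end, holds no GATA match. The end of the Rhag stretch, with its GATA match, also falls inside the annotated gene. Apart from Gata1, each of the 6 stretches held 1 GATA match, which lay 31 bases (Rhag), 43 bases (Rhd), 54 bases (Epor), 68 bases (Uros), 80 bases (Klf1) or 86 bases (Alas2) before the start. Alas2 also held 3 adjoining GGGTG matches, which share no base with each other. A window of 250 bases before to 50 bases after the start was given for 27 of the 36 genes (35 windows). AGATAA or TGATAA, on either strand, was present in at least 1 window of 14 of the 27 genes (51.9%), against 13.0% of 10124 genes tested and 21.0% of 27025 genes with such a window. Of the 14 genes, 11 held a match within 100 bases before the start. CACCC on either strand was in 21 of 27 genes (77.8%) and in 66.7% of the genes tested. The longer CCACACCC, which contains CACCC, was in 0 of 27 genes and in 4.6% of the genes tested. Among the genes that rose after busulfan, 5 of the 9 with a window held a GATA match, and among those that did not pass the test, 9 of 18 did. The stretches of all 5 are shown above, whereas those of Tfrc, Alad and Urod, which rose and held no GATA match, are not. A match is a run of letters and not a measured binding site.

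Several mice stood apart from their group in these genes. B-sa 1 had the lowest value of its group for 36 of 36 erythroid genes, whereas it was lowest for 25.1% of all genes tested. Con-sa 2 was lowest for 31 of the 36 (39.2% of all genes), and B+A10-FMT 3 was lowest for 28 of the 36 (30.5% of all genes). B+Con-FMT 3 was highest for 30 of the 36 (42.9% of all genes). The depth was similar in all mice. Globin transcripts took 23.3% to 32.4% of all RPKM, the unit of the files (reads per kilobase of transcript, scaled to the size of the library). Markers of pancreatic acinar cells summed to between 442 and 13200 RPKM and varied within each group. The sum of kidney markers was highest in the Con-sa mice (77.2 to 119 RPKM), then in B+Con-FMT (18.8 to 63.8), B-sa (8.39 to 15.8) and B+A10-FMT (1.1 to 3.97), with no overlap between any pair of groups.

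The mean over the 36 genes of log2(RPKM + 1) was 6.84, 6.63 and 6.80 in the Con-sa mice (mean 6.76 ± 0.11, SD, n = 3). In the B-sa mice it was 6.78, 7.09 and 7.12 (7.0 ± 0.19). It was 6.77, 6.79 and 6.92 in B+Con-FMT (6.83 ± 0.08) and 6.98, 6.91 and 6.85 in B+A10-FMT (6.91 ± 0.07). B-sa 2 and B-sa 3 lay above every other mouse, while B-sa 1 lay among the Con-sa mice. Outside the globins, the 36 genes made up 1.07% to 1.23% of RPKM in Con-sa and 1.18% to 1.58% in B-sa.

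**Figure D1:**
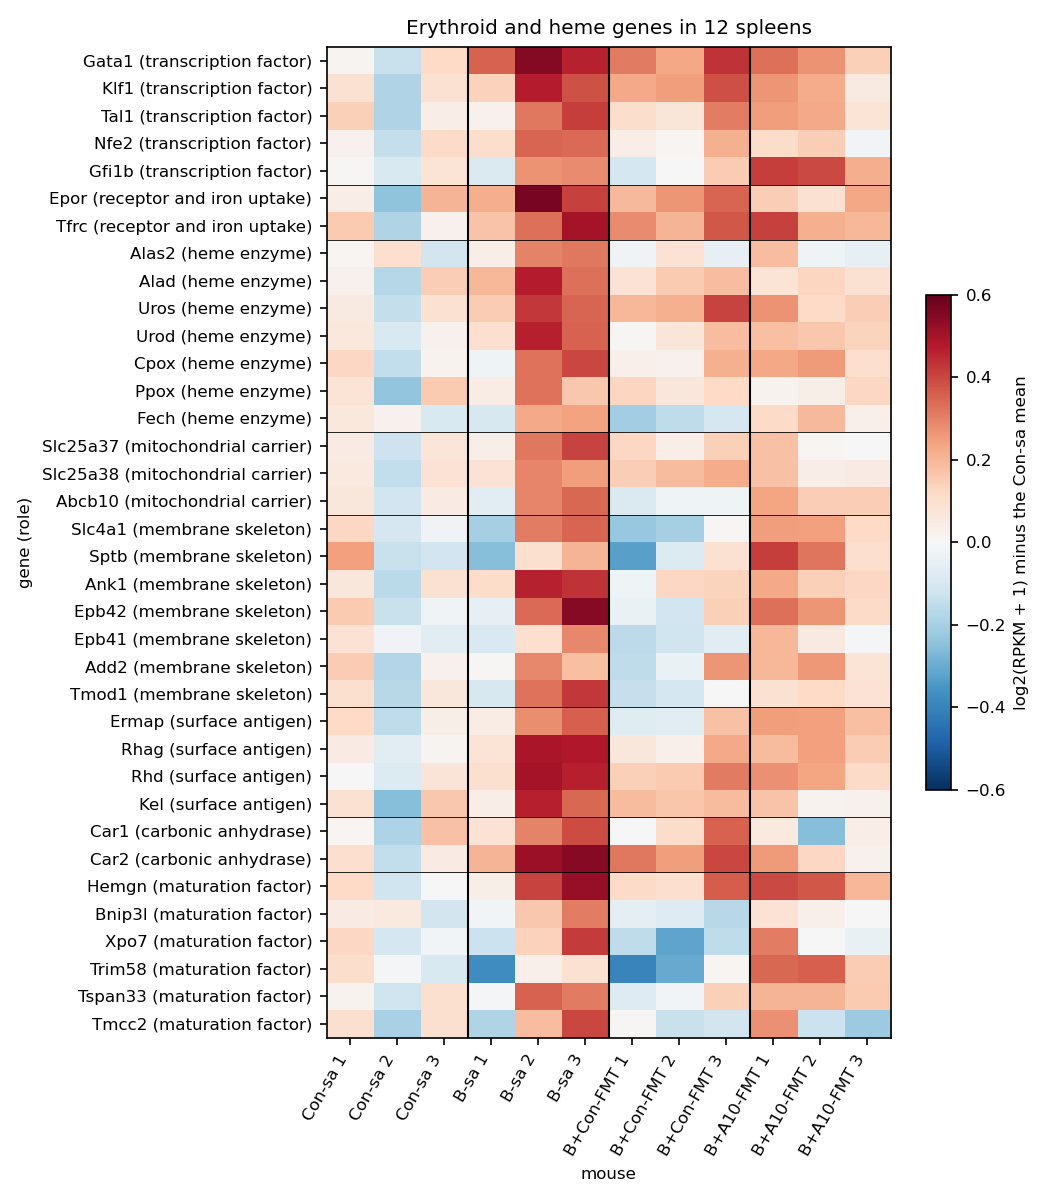
Heat map of the 36 erythroid and heme genes (rows, with their role) in 12 spleens (columns, 3 mice in each of 4 groups); color is log2(RPKM + 1) minus the Con-sa mean of that gene. B-sa 2 and B-sa 3 are the reddest columns, and the values of B-sa 1 are lower than both in all 36 rows.

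The heat map shows that a mouse that was low or high within its group was so over most of the list, so that 1 mouse weighs on many genes at the same time.

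The first comparison asks which of these genes differed in spleen after busulfan alone. In B-sa versus Con-sa, 11 of the 36 genes rose (30.6%) and none fell. Over all genes tested, 4.73% rose and 9.78% fell. The 11 were the factors Gata1 and Klf1, the receptors Epor and Tfrc, the heme enzymes Alad, Uros and Urod, the skeleton gene Ank1, the surface antigens Rhag and Rhd, and Car2. The log2 fold change was above 0 for 35 of 36 genes (40.2% of all genes), with a median of 0.24 against −0.044 over all genes. The 3 B-sa mice lay above all 3 Con-sa mice for 11 of the 36 (30.6%), against 11.2% of all genes.

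Gata1, the factor that drives erythroid differentiation, stood at 61.8, 55.7 and 66.5 RPKM in Con-sa and at 78.5, 90.1 and 84.5 RPKM in B-sa. Every B-sa mouse was above every Con-sa mouse. The mean was 37.5% higher in B-sa (log2 fold change 0.45 ± 0.08, SE, adjusted p = 0.00604, limma with Benjamini-Hochberg adjustment). This call held with each of the 12 mice left out in turn (log2 fold change 0.39 to 0.51, adjusted p from 0.00459 to 0.0303).

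Klf1, which switches on globin and membrane genes, was at 142, 117 and 142 RPKM in Con-sa and at 147, 185 and 174 RPKM in B-sa. The groups did not overlap, but B-sa 1 was close to the highest Con-sa mice. Its log2 fold change of 0.33 ± 0.10 had an adjusted p of 0.0392, which was lost in 7 of the 12 fits with a mouse left out (up to 0.156, without B-sa 2). The other 3 factors did not pass. Tal1, a partner of GATA1 in its complex, was at 0.25 (adjusted p = 0.124) and Nfe2, a factor of globin regulation, at 0.26 (adjusted p = 0.0548). Gfi1b, a transcriptional repressor that acts in the erythroid and megakaryocytic lineages, was at 0.16 (adjusted p = 0.302).

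Epor, the receptor for erythropoietin, was at 45.0, 36.9 and 50.6 RPKM in Con-sa and at 51.2, 65.6 and 58.5 RPKM in B-sa. No mouse of one group crossed into the other, though Con-sa 3 and B-sa 1 nearly met. Epor rose by 32.3% (log2 fold change 0.40 ± 0.11, adjusted p = 0.0294), and the adjusted p went to 0.12 without B-sa 2 and to 0.0901 without Con-sa 2. Tfrc, which brings in transferrin-bound iron, was at 135, 106 and 123 RPKM in Con-sa and at 136, 152 and 171 RPKM in B-sa, again without overlap, and rose by 26.3% (log2 fold change 0.33 ± 0.10, adjusted p = 0.0401, and 0.136 without Con-sa 2).

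Heme synthesis begins in the erythroid cell with Alas2, which makes aminolevulinate in the mitochondrion. Alas2 was at 597, 635 and 548 RPKM in Con-sa and at 609, 729 and 737 RPKM in B-sa, and B-sa 1 lay between the Con-sa mice. Its log2 fold change of 0.22 ± 0.09 did not pass (adjusted p = 0.102), and was 0.31 without B-sa 1 (adjusted p = 0.023). The cytosolic steps that follow did pass in 3 of 3 listed genes. None of these 3 calls held without Con-sa 2 or without B-sa 2. With a mouse left out, the adjusted p reached 0.0858 for Alad, 0.131 for Uros and 0.118 for Urod. Alad, which joins aminolevulinate to porphobilinogen, rose by 25.9% (adjusted p = 0.0188), Uros, which closes the ring of uroporphyrinogen, by 24.3% (adjusted p = 0.0318), and Urod, which turns that ring into coproporphyrinogen, by 24.4% (adjusted p = 0.0282).

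The last steps, back in the mitochondrion, gave lower values. Cpox, the coproporphyrinogen oxidase, was at a log2 fold change of 0.23 (adjusted p = 0.149) and Ppox, the protoporphyrinogen oxidase, at 0.18 (adjusted p = 0.211). Fech, the ferrochelatase that inserts iron, was at 245, 238 and 220 RPKM in Con-sa and at 219, 274 and 277 RPKM in B-sa. B-sa 1 was below all 3 Con-sa mice in Fech, and the log2 fold change of 0.12 ± 0.08 had an adjusted p of 0.327 (0.23 and adjusted p = 0.0269 without B-sa 1). It was 0.07 without B-sa 2 (adjusted p = 0.668) and 0.07 without B-sa 3 (adjusted p = 0.654). The difference between the cytosolic and the mitochondrial steps was not tested. The mitochondrial carriers Slc25a37 (mitoferrin, which takes in iron), Slc25a38 (a glycine carrier) and Abcb10 (a transporter of the inner membrane) were at 0.25, 0.21 and 0.19, with no call.

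In the membrane skeleton 1 of 7 genes passed. Ank1, the ankyrin that ties spectrin to the membrane, rose by 27.0% (log2 fold change 0.33 ± 0.09, adjusted p = 0.0331). Its call was lost in 4 of the 12 fits with a mouse left out (adjusted p up to 0.136). Under the processing alternatives with no mouse left out, its log2 fold change ran from 0.335 to 0.669. Slc4a1, the anion exchanger band 3, was at 549, 469.8 and 497 RPKM in Con-sa and at 439.7, 624 and 643 RPKM in B-sa. B-sa 1 was the lowest and B-sa 3 the highest of these 6 mice, and the log2 fold change of 0.15 ± 0.13 did not pass (adjusted p = 0.436), while it was 0.33 without B-sa 1 (adjusted p = 0.0187), 0.08 without B-sa 2 (adjusted p = 0.776) and 0.05 without B-sa 3 (adjusted p = 0.812). The other 5 genes lay between 0.01 for Sptb, the erythroid beta spectrin, and 0.28 for Epb42, protein 4.2.

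Among the surface antigens, Rhag, the Rh-associated glycoprotein and an ammonium channel, was at 86.8, 79.9 and 84.8 RPKM in Con-sa and at 88.7, 118 and 117 RPKM in B-sa. B-sa 1 lay just above the Con-sa mice and the other B-sa mice well above them (log2 fold change 0.35 ± 0.09, adjusted p = 0.0298). Rhd, its Rh blood group partner, was at 166, 156 and 175 RPKM in Con-sa and at 177, 234 and 229 RPKM in B-sa, a rise of 28.9% (adjusted p = 0.0291), and B-sa 1 was again the nearest to the Con-sa mice. Without B-sa 2 the adjusted p was 0.125 for Rhag and 0.122 for Rhd. Ermap, the Scianna blood group protein, was at 0.23 (adjusted p = 0.113) and Kel, the Kell endopeptidase, at 0.28 (adjusted p = 0.111).

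Car2, a carbonic anhydrase of the red cell and also of other tissues, was at 1094, 921 and 1056 RPKM in Con-sa and at 1176, 1456 and 1492 RPKM in B-sa. All B-sa mice were higher, and the rise of 34.3% (log2 fold change 0.42 ± 0.09, adjusted p = 0.0142) was lost without Con-sa 2 (adjusted p = 0.0554) and without B-sa 2 (adjusted p = 0.0675). Car1, the erythroid carbonic anhydrase, was at 318, 277 and 356 RPKM in Con-sa and at 335, 388 and 414 RPKM in B-sa, with overlap (log2 fold change 0.26 ± 0.12, adjusted p = 0.174).

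None of the 6 maturation factors passed. Bnip3l, which marks mitochondria for removal in the reticulocyte, was at 142, 142 and 127 RPKM in Con-sa and at 135, 153 and 169 RPKM in B-sa (log2 fold change 0.15 ± 0.08, adjusted p = 0.191). Its groups overlapped through B-sa 1, and it was at 0.24 without that mouse (adjusted p = 0.0342), at 0.07 without B-sa 3 (adjusted p = 0.52) and at 0.003 with only its leading transcript (adjusted p = 0.989). It was also at 0.10 without Con-sa 3 (adjusted p = 0.468). Trim58, a ubiquitin ligase of late erythroblasts, was the only gene of the 36 below 0 (log2 fold change −0.08, adjusted p = 0.692), and Hemgn, an erythroid nuclear protein, had the highest value among the 6 (0.32, adjusted p = 0.0859).

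**Figure D2:**
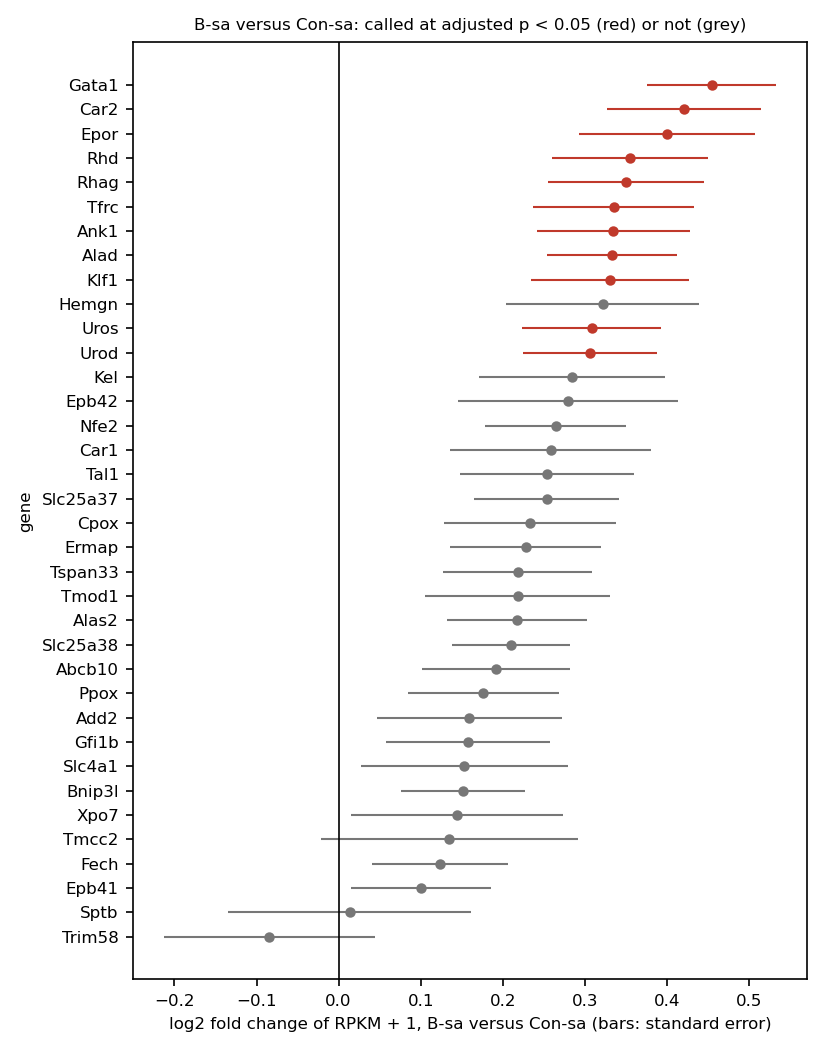
Log2 fold change of RPKM + 1 in B-sa versus Con-sa (x axis; points, with bars of 1 standard error) for the 36 genes (y axis), 3 mice a group; red points passed the adjusted p of 0.05. Gata1 is at the top with 0.45 and Trim58 at the bottom with −0.08, and 11 points are red.

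The plot of log2 fold changes shows values from −0.08 to 0.45 with standard errors of 0.07 to 0.16, so the order of neighbouring genes does not go beyond the error. The count of calls turned on single mice. It was 28 of 36 without B-sa 1 (5.52% of all genes were then called higher), 1 without B-sa 2 (1.31%) or without Con-sa 2 (1.7%), 3 without B-sa 3 (3.54%), 4 without Con-sa 1 (2.12%) and 7 without Con-sa 3 (2.6%), and Gata1 was in every one of these sets.

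Some other genes of the same pathway, taken from lists of non-members, also rose in B-sa. Their counts are to be read against the 4.73% of all genes that rose and the 9.78% that fell. In the list of heme and iron supply, 8 of 22 genes rose and 0 fell, led by Glrx5, an iron-sulfur cluster protein (log2 fold change 0.42), and including Blvrb, a biliverdin reductase (0.37). Of 32 genes of the membrane and late maturation, 9 rose and 2 fell, among them Prdx2, a red cell peroxidase (0.36), and the urea transporter Slc14a1 (0.35) on the higher side, and the glucose transporter Slc2a1 (−0.30) and the tropomodulin Tmod3 (−0.23) on the lower side. Of 26 erythroid regulators, 4 rose, led by the survival factor Bcl2l1 (0.39) and the progenitor factor Myb (0.31), and Bcl11a, which silences embryonic globin and also acts in B cells, fell (−0.25). The medians of the lists were 0.11, 0.20 and 0.00, beside −0.044 over all genes.

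Markers of other cells of the spleen moved in the same comparison, again beside 4.73% of all genes higher and 9.78% lower. The summed B cell markers were 2070 to 2290 RPKM in Con-sa and 1580 to 1900 RPKM in B-sa, and 5 of 8 fell. Of 10 proliferation genes 7 rose (summed 1030 to 1110 and 1210 to 1390 RPKM), of 8 neutrophil markers 3 rose (2050 to 2130 and 3660 to 6020 RPKM), and of 8 megakaryocyte markers, a lineage that also uses Gata1, Tal1, Nfe2 and Gfi1b, 2 rose (827 to 890 and 1030 to 1270 RPKM). Summed globins were 174000 to 181000 RPKM in Con-sa and 206000 to 250000 RPKM in B-sa, but of the 7 globin genes tested 3 were higher in B-sa and 2 lower. The adult beta globin genes Hbb-b1 (log2 fold change 1.53) and Hbb-b2 (1.41) and the alpha globin gene Hba-a1 (0.30) were higher. The adult beta globin genes Hbb-bs (log2 fold change −10.63) and Hbb-bt (−8.82) were lower, with Hbb-bs at 20290 to 45902 RPKM in Con-sa, at 9.2 to 30.5 RPKM in B-sa and at 36.4 to 20930 RPKM in B+Con-FMT. As background, the pair Hbb-bs and Hbb-bt and the pair Hbb-b1 and Hbb-b2 belong to alternative haplotypes of the beta globin locus, and an outbred stock can carry both. Summed kidney markers were 77.2 to 119 RPKM in Con-sa and 8.39 to 15.8 RPKM in B-sa, and 3 of the 3 tested fell. B-sa 1 had the lowest mean of the 36 genes, the lowest globin sum and the highest B cell sum of its group. The part of these cells in the rise of the erythroid genes was not tested.

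**Figure D3:**
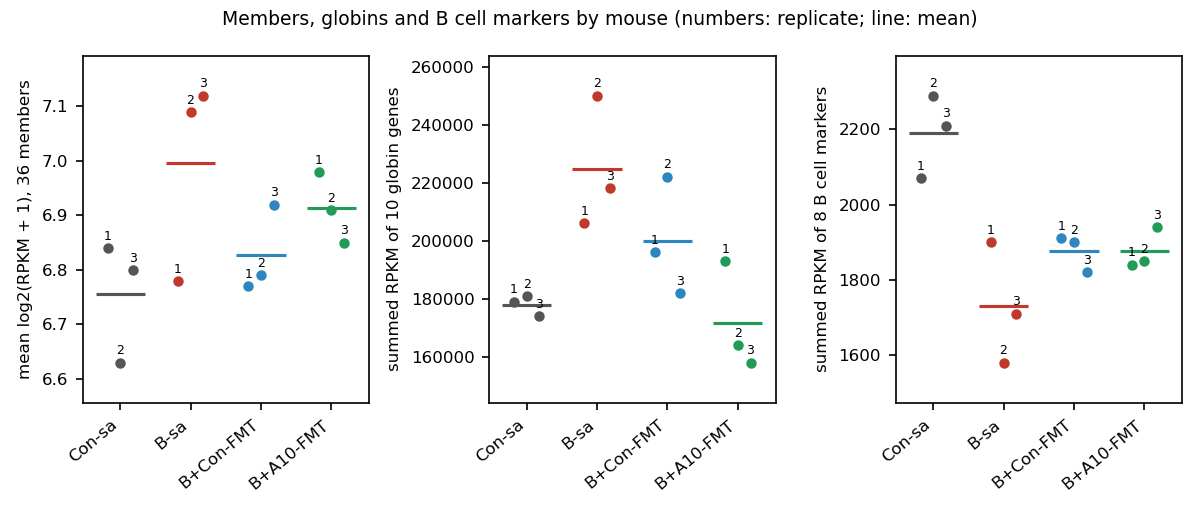
Mean log2(RPKM + 1) of the 36 genes (left), summed RPKM of 10 globin genes (middle) and summed RPKM of 8 B cell markers (right) for each mouse (numbered points) in 4 groups, with a line at the group mean; the y axes do not start at 0. In B-sa all 3 mice lie above the Con-sa mice for globins and below them for B cell markers, while for the 36 genes B-sa 1 lies with Con-sa.

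The panels for each mouse set these sums side by side. In the B+A10-FMT group the globin sum was 158000 to 193000 RPKM and overlapped that of Con-sa, with the mean of the 36 genes above all Con-sa mice (6.85 to 6.98 against 6.63 to 6.84).

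The next comparisons ask whether FMT after busulfan went with other levels than saline after busulfan. They share the B-sa mice with the comparison above. In B+Con-FMT versus B-sa, limma called 0 of the 36 genes (0.844% of all genes), and 14 had an unadjusted p under 0.05 (18.4% of all genes). All 36 log2 fold changes were below 0 (48.5% of all genes were above 0), with a median of −0.15 beside −0.004 over all genes. The 3 B+Con-FMT mice lay below all B-sa mice for 4 of the 36 (11.1%; 9.05% of all genes), among them Fech (203, 211 and 218 RPKM against 219, 274 and 277 RPKM, log2 fold change −0.28 ± 0.08, adjusted p = 0.118) and Bnip3l (131, 129 and 122 RPKM against 135, 153 and 169 RPKM, −0.25 ± 0.08, adjusted p = 0.12). In both genes B-sa 1 was next to the B+Con-FMT mice. Without B-sa 1, 13 of the 36 were lower in B+Con-FMT (1.78% of all genes), Fech, Bnip3l, Slc4a1, Ank1, Rhag and Rhd among them.

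In B+A10-FMT versus B-sa, limma also called 0 of the 36 genes (5.27% of all genes), and 7 had an unadjusted p under 0.05 (24.5% of all genes). Log2 fold changes were above 0 for 6 genes (62.5% of all genes), with a median of −0.12 beside 0.046 over all genes. Car2, at 1218, 1112 and 1041 RPKM in B+A10-FMT, had the smallest adjusted p (log2 fold change −0.29 ± 0.09, adjusted p = 0.0903), and B+A10-FMT 1 overlapped B-sa 1. Car1 was at 328, 264 and 325 RPKM in B+A10-FMT, below all B-sa mice (log2 fold change −0.31 ± 0.12, adjusted p = 0.149). Trim58 had the value farthest above 0 (0.37 ± 0.13, adjusted p = 0.107). Without B-sa 1, 6 of the 36 were lower in B+A10-FMT (1.77% of all genes): Alad, Car2, Rhag, Rhd, Slc25a37 and Urod.

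Of the non-members, 1 of 22 genes of heme and iron supply, 2 of 26 regulators and 2 of 32 genes of the membrane and late maturation were called here, a share near that of all genes. Glrx5 (log2 fold change −0.38, adjusted p = 0.0494) and Prdx2 (−0.27, adjusted p = 0.039) lay below their B-sa levels in B+A10-FMT. Runx1, a factor of blood stem and progenitor cells (0.25, adjusted p = 0.0245), and Kit, the receptor of early progenitors and of mast cells (0.24, adjusted p = 0.0336), were higher. No gene of the 3 non-member lists was called in B+Con-FMT versus B-sa.

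Set against Con-sa, the FMT groups showed what remained different from mice without busulfan. In B+Con-FMT versus Con-sa 1 of the 36 rose, Gata1, and none fell (2.3% of all genes rose and 6.57% fell). Gata1 was at 76.2, 71.9 and 83.0 RPKM in B+Con-FMT, above all Con-sa mice (log2 fold change 0.33 ± 0.08, adjusted p = 0.0267). That call was lost with Con-sa 1 (adjusted p = 0.074), Con-sa 2 (adjusted p = 0.0979), B+Con-FMT 1 (adjusted p = 0.0665) or B+Con-FMT 3 (adjusted p = 0.0855) left out. Car2 followed at 0.32 ± 0.09 (adjusted p = 0.0505). The median of the 36 was 0.09, beside −0.041 over all genes.

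In B+A10-FMT versus Con-sa, 0 of the 36 were called (0.41% of all genes), and 7 had an unadjusted p under 0.05 (13.5% of all genes). The log2 fold change was above 0 for 34 of 36 (51.8% of all genes), with a median of 0.17 beside 0.005 over all genes, and the 3 B+A10-FMT mice lay above all Con-sa mice for 13 of the 36 (36.1%; 11.7% of all genes). Gata1 was at 77.2, 74.0 and 67.7 RPKM in B+A10-FMT, again above every Con-sa mouse (log2 fold change 0.25 ± 0.08, adjusted p = 0.219). Gfi1b had the highest value (0.34 ± 0.10, adjusted p = 0.186). Whether Gata1 differed between the FMT groups was tested directly, and the log2 fold change, B+A10-FMT relative to B+Con-FMT, was −0.08 ± 0.08 (adjusted p = 0.546).

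The direct comparison of the FMT groups asks whether levels differed with the inoculum. Each group shared 1 pooled inoculum, so the donor treatment cannot be told apart from other differences between the pools. Relative to B+Con-FMT, 1 of the 36 genes was higher in B+A10-FMT, Trim58, and none lower (7.58% of all genes were higher and 2.78% lower). Trim58 was at 12.1, 12.2 and 10.4 RPKM in B+A10-FMT and at 6.81, 7.33 and 9.37 RPKM in B+Con-FMT. The groups did not overlap, and the mean was 47.4% higher in B+A10-FMT (log2 fold change 0.51 ± 0.13, adjusted p = 0.0285). That call was lost without B+Con-FMT 1 (adjusted p = 0.109), B+Con-FMT 2 (0.0883), B+A10-FMT 1 (0.0676) or B+A10-FMT 2 (0.111), with log2 fold changes of 0.43 to 0.49. In Con-sa Trim58 was at 10.1, 9.19 and 8.64 RPKM, below all B+A10-FMT mice and overlapping B+Con-FMT.

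By role, the values were as follows. All 7 genes of the membrane skeleton had log2 fold changes above 0, with a median of 0.20, and so were all 6 maturation factors, with a median of 0.15, beside 0.046 over all genes, of which 61.2% were above 0. The 5 transcription factors had a median of −0.01 (2 above 0), the 7 heme enzymes 0.03 (4 above 0), and both carbonic anhydrases were below 0 (−0.20 and −0.19). No role was tested as a group. Slc4a1 was at 601, 597.5 and 548.5 RPKM in B+A10-FMT and at 431, 439 and 506 RPKM in B+Con-FMT, without overlap (log2 fold change 0.35 ± 0.13, adjusted p = 0.0998). Fech was at 254, 268 and 239.4 RPKM in B+A10-FMT, above the 203 to 218 RPKM of B+Con-FMT (0.27 ± 0.08, adjusted p = 0.0561, and 0.14 with adjusted p = 0.324 once the length and GC trend was removed). Gfi1b was at 58.0, 57.2 and 50.5 RPKM against 40.1, 43.2 and 48.2 RPKM (0.33 ± 0.10, adjusted p = 0.0545). Sptb (0.38 ± 0.15, adjusted p = 0.116) and Xpo7, a nuclear export receptor of late erythroblasts (0.30 ± 0.13, adjusted p = 0.158), also had no overlap. With the length and GC trend removed, Xpo7 was at 0.16 (adjusted p = 0.439) and Sptb at 0.27 (adjusted p = 0.269). The values of the FMT groups did not overlap, with B+A10-FMT higher, for 12 of the 36 (33.3%), against 23.8% of all genes.

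**Figure D4:**
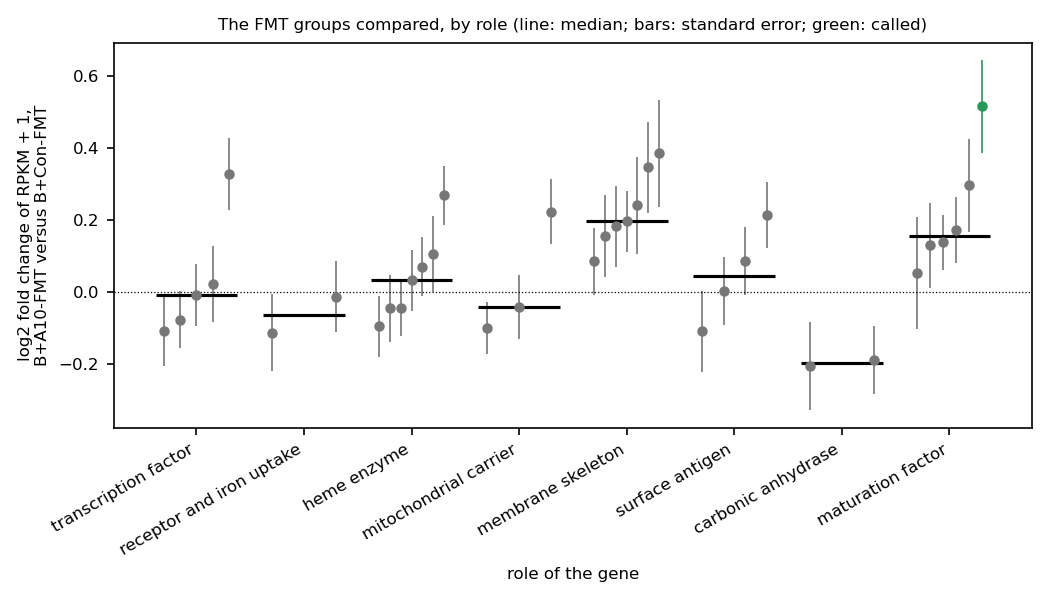
Log2 fold change of RPKM + 1 for B+A10-FMT relative to B+Con-FMT (y axis; points, with bars of 1 standard error) for the 36 genes by role (x axis), with a line at the median of each role, 3 mice a group. The membrane skeleton and the maturation factors lie above 0 throughout, Trim58 (green) is the only called gene, and both carbonic anhydrases lie below 0.

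The plot by role shows these medians beside the error of each gene. Transcript length differed between the roles, with a median of 8182 bases for the skeleton genes, 3408.5 for the maturation factors, 1878 for the transcription factors and 3318 over the genes tested. The mitochondrial carriers had a median length of 4306 bases and a median log2 fold change of −0.04, the receptors 3325.5 bases and −0.06, and the carbonic anhydrases 1491 bases and −0.20. With each library's trend over length and GC removed, the median was 0.13 for the membrane skeleton (6 of 7 above 0), 0.10 for the maturation factors (5 of 6 above 0) and −0.04 for the transcription factors, and Trim58 remained called. Of the 3 kidney markers tested, 2 were lower in B+A10-FMT. Acinar markers summed to 8120 to 13200 RPKM in B+Con-FMT and to 442 to 9440 RPKM in B+A10-FMT (0 of 12 called), and red pulp macrophage markers to 528 to 655 and 833 to 992 RPKM (6 of 9 higher in B+A10-FMT). Their part in these values was not tested.

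Among non-members, to be read against the 7.58% of all genes higher and 2.78% lower, B+A10-FMT was higher than B+Con-FMT for 4 of 26 erythroid regulators (none lower), with Kit at 9.04, 9.71 and 9.39 RPKM against 6.66, 6.54 and 7.01 RPKM (log2 fold change 0.42 ± 0.06, adjusted p = 0.002), Runx1 at 0.26 and Jak2, the kinase of the erythropoietin receptor, at 0.24. Kit was lower in B+Con-FMT than in Con-sa (7.87, 8.20 and 8.30 RPKM, log2 fold change −0.24, adjusted p = 0.0272). Of the membrane and late maturation list, 4 of 32 were higher in B+A10-FMT and none lower, led by Pklr, the red cell and liver pyruvate kinase (0.55 ± 0.12, adjusted p = 0.0152), Cd36, a scavenger receptor of erythroid progenitors and macrophages (0.44 ± 0.09, adjusted p = 0.0116), and the catalase Cat (0.25). In the heme and iron list 2 of 22 were higher and 1 lower, near the share of all genes. Hmox1, the heme oxygenase that macrophages use to break down heme and that is also in the macrophage list, was higher (0.58 ± 0.12, adjusted p = 0.0164), as was the heme transporter Slc48a1 (0.21, adjusted p = 0.0497). Glrx5 was lower, at 199, 177 and 189 RPKM against 256, 242 and 228 RPKM (−0.36 ± 0.10, adjusted p = 0.0431).

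Each gene was also set against Gata1 of the same library. Gata1 itself had the highest log2 fold change of the 36 genes in B-sa versus Con-sa (0.45). The ratio therefore does not correct for the amount of erythroid RNA. This ratio was chosen after the values were seen and is a description, and it carries the error of Gata1 in every gene. Between the FMT groups, 20 of the other 35 genes had a higher ratio in B+A10-FMT without overlap (26.1% of all genes), and Car2 alone a lower one (2.34% of all genes), both counted on log2(RPKM + 1). With the length and GC trend removed it was 16 of 35 (15.5% of all genes). Between B+A10-FMT and B-sa, 8 of the 35 ratios were higher in B+A10-FMT without overlap, a smaller share than that of all genes (43.7%). Slc4a1, Fech, Gfi1b, Sptb and Trim58 were among the 8. With the length and GC trend removed it was again 8 of 35 (35.3% of all genes), and Fech was no longer among them. The log2 ratio of Slc4a1 to Gata1 was 3.15, 3.08 and 2.90 in Con-sa, 2.49, 2.79 and 2.93 in B-sa, 2.5, 2.61 and 2.61 in B+Con-FMT and 2.96, 3.01 and 3.02 in B+A10-FMT. The B+A10-FMT mice fell within the Con-sa range, above all B+Con-FMT mice and above all B-sa mice. The log2 ratio of Trim58 to Gata1 was −2.62, −2.60 and −2.94 in Con-sa, −3.50, −3.24 and −3.09 in B-sa, −3.48, −3.29 and −3.15 in B+Con-FMT and −2.68, −2.60 and −2.70 in B+A10-FMT, which again lay above all B-sa and all B+Con-FMT mice. In B-sa versus Con-sa 16 of the 35 ratios were lower without overlap, but so were those of 83.9% of all genes, since Gata1 itself rose.

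**Figure D5:**
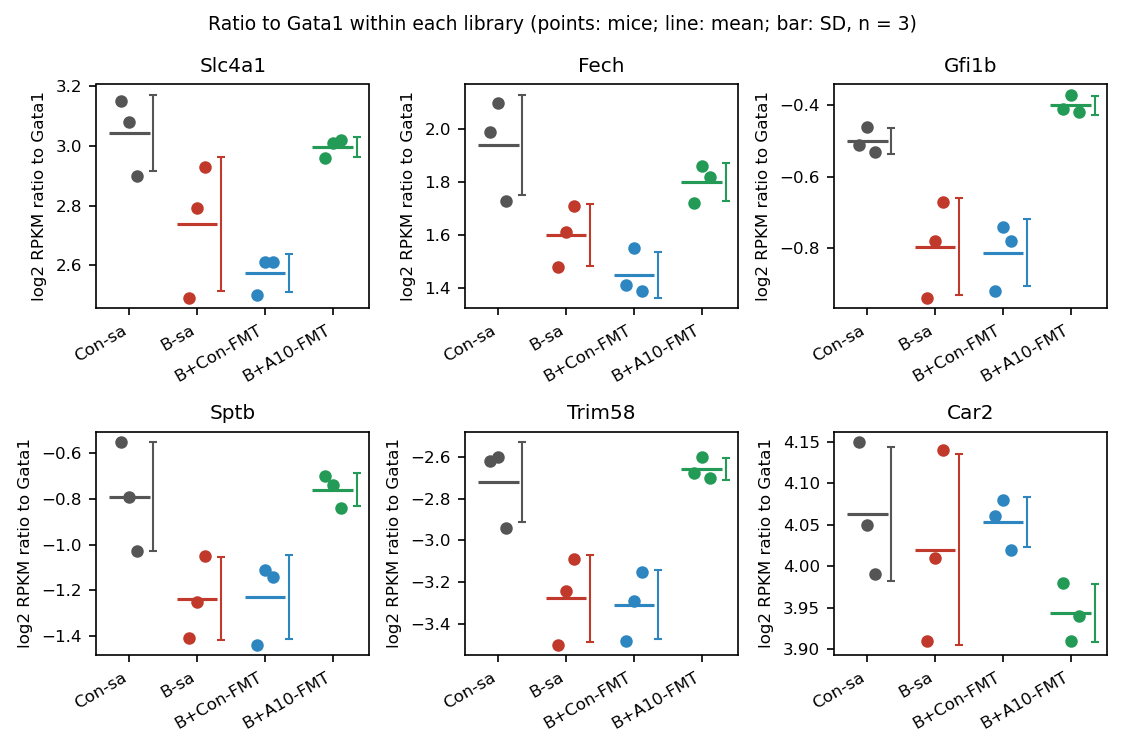
Log2 of the RPKM ratio to Gata1 within each library (y axis, not starting at 0) for 6 genes chosen after their values were seen, in 4 groups of 3 mice (points), with a line at the mean and a bar of 1 SD. For Slc4a1, Fech, Gfi1b, Sptb and Trim58 the B+A10-FMT points lie above all B+Con-FMT points, and for Car2 they lie below them.

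In the panels of the ratio, B-sa and B+Con-FMT had lower means than Con-sa and B+A10-FMT for Slc4a1, Fech, Gfi1b, Sptb and Trim58. B-sa and B+Con-FMT overlapped each other in these genes. For Slc4a1, B-sa 3 (2.93) lay within the Con-sa range (2.90 to 3.15). In B+Con-FMT versus Con-sa 27 of the 35 ratios were lower without overlap, but so were those of 76.6% of all genes. In Gfi1b the ratio was −0.41, −0.37 and −0.42 in B+A10-FMT, above the −0.51, −0.46 and −0.53 of Con-sa. For Klf1 the ratios ran from 0.90 to 1.20 over the 12 mice. Its B-sa mice (0.90 to 1.04) lay below all Con-sa mice (1.07 to 1.20), as did the ratios of 83.9% of all genes, but overlapped them with the length and GC trend removed. The FMT groups overlapped each other.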

How the data were processed

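Spleen RNA of 12 mice was measured in 4 groups of 3, taken from the sample labels. Per the study's methods, the authors enriched polyadenylated RNA, mapped reads to reference genes with SOAPaligner (v. 2.20) and turned read numbers into RPKM; the sample records also name HISAT, Bowtie2 and mm10, with no role given, and BGISEQ libraries where the methods give an Illumina HiSeq. The deposited RPKM values list 60654 RefSeq transcripts. Here they were summed to 18221 genes by Entrez identifier, and those reaching an RPKM of 1 in 3 mice or more (12671) entered the test. The fit, in limma 3.58.1 (R 4.3.3), was on log2(RPKM + 1) with empirical Bayes, trend and robust settings, all 12 mice in 1 fit with group as the only factor. Tests are two-sided with Benjamini-Hochberg adjustment over the table, with 0.05 as the limit for a call. Fold changes are on the log2(RPKM + 1) scale, and percent changes compare mean RPKM. The test was checked on simulated data.

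The 37 genes, their roles, the other lists and the tests were chosen with earlier results of these data known. Values per mouse are given for Gata1, Klf1, Epor, Tfrc, Alas2, Fech, Slc4a1, Car1, Bnip3l, for up to 5 called members per direction and comparison with the largest change, and, outside the lists, for up to 3 called genes per list and direction; any other gene with values was chosen after they were seen, and some genes under this rule are not reported here. Depth was not given. It was estimated at 13000000 to 13600000 reads per mouse from the RPKM step of 1 read in single-transcript genes of 600 to 2500 bases, and precision rests on the 3 mice of a group. Promoter windows, from 250 bases before to 50 bases after the start, are from RefSeq. The alternatives were a pseudocount of 0.1, no filter, the replicate number as a block, equal totals outside the globins, median-of-ratios scaling, the leading transcript of each gene, only the 2 groups compared and each mouse left out. Removal of the trend along transcript length and GC content was added after seeing the data. Python 3.11.15, NumPy 2.4.6, pandas 2.3.3 and matplotlib 3.10.9 were used.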

Additional observations from a re-analysis of the deposited data

How the results depend on the processing

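No direction was reversed among 23 single-gene results under 20 alternatives each, 460 values in all. Of the 260 values that belong to the 13 called results, 76 lost the call, and 14 values of the others gained one. With all mice kept, calls among the 36 genes were all on the higher side and are set beside the percent of all genes called higher. In B-sa versus Con-sa they were 7 with no filter (2.57%), 5 with the leading transcript (1.84%) and 2 with only the 2 groups compared (Gata1 and Car2, 2.71%). Between the FMT groups they were 0 with no filter (3.66%), 0 with the leading transcript (1.61%), 3 with equal totals outside the globins (16.6%) and 5 with only the 2 groups (5.25%). In B+Con-FMT versus Con-sa they were 3 with median-of-ratios scaling (5.0%) and 2 with only the 2 groups (2.18%), and with the leading transcript (0.811%) the 1 call was Uros, with that of Gata1 lost. The cause was not tested. With 1 mouse left out, its group had 2 mice and the spread was pooled over all groups. This gave, for B-sa versus Con-sa, 1 to 28 calls. It gave 0 to 13 for B+Con-FMT against B-sa, 0 to 6 for B+A10-FMT against B-sa, 0 to 5 between the FMT groups, 0 to 4 for B+Con-FMT against Con-sa and 0 for B+A10-FMT against Con-sa. The differences of the 36-gene mean kept their sign, at 0.176 to 0.348, −0.28 to −0.109, −0.193 to −0.023, 0.051 to 0.133, 0.006 to 0.109 and 0.092 to 0.195 in the same order. The replicate numbers belong to different mice, and the deviations of same-numbered mice correlated at −0.373 to 0.303 (different numbers −0.432 to 0.512). With the number as a block, 10 genes were called in B-sa versus Con-sa (Klf1 was lost), and Trim58 and Gata1 kept their calls in the FMT comparisons. Under median-of-ratios scaling all genes called in B-sa versus Con-sa split into 966 higher and 736 lower, beside 599 and 1239, and between the FMT groups into 551 and 695, beside 960 and 352. It gave 287 and 329, beside 507 and 161, for B+A10-FMT against B-sa, and 632 and 499, beside 292 and 832, for B+Con-FMT against Con-sa. With equal totals outside the globins the shares higher and lower were 16.6% and 1.89% between the FMT groups and 1.57% and 12.9% for B+Con-FMT against Con-sa, and for B+Con-FMT against B-sa the split was 67 and 113, beside 79 and 28. Without read counts, no counting interval can be given.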
